A study of Mus musculus with 6 samples.

Results

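The endoplasmic reticulum (ER) chaperone and unfolded protein response genes are 36 genes that act on proteins entering the secretory pathway, chosen by name from that pathway. All 36 were found among the 22274 genes of the deposited table, 34 by symbol and 2 by gene ID (Ero1l and Ero1lb, listed there as Ero1a and Ero1b), and all 36 were among the 13201 genes tested. They comprise 10 chaperones and co-chaperones, 2 secreted ER proteins, 6 disulfide isomerases and oxidases, 3 stress sensors with their effector Xbp1, 10 genes of ER-associated degradation, 3 genes of protein translocation, and Cdk2ap2, a regulator of cyclin-dependent kinase activity.

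RNA was sequenced from livers of C57 mice in 2 groups. In the Ad-Dyrk1b group (3 libraries) an adenovirus drove overexpression of the mouse kinase gene Dyrk1b, and in the Ad-EGFP group (3 libraries) the mice carried a control adenovirus, so both groups had been infected. The age and sex of the mice, the viral promoter, the dose and the time after infection were not given in the sources used here, and the Dyrk1b counts may include viral as well as endogenous transcripts. The comparison asks how raised Dyrk1b changes hepatic RNA levels in a study concerned with glucose homeostasis.

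The ER lumen is where secreted and membrane proteins are folded, glycosylated and cross-linked by disulfide bonds, and the hepatocyte, which makes most plasma proteins, carries a large load of this work. When unfolded proteins build up, the membrane sensors IRE1 (Ern1), PERK (Eif2ak3) and ATF6 signal to the nucleus, in part through the spliced form of Xbp1 and the cleaved form of ATF6, and the genes for chaperones, oxidoreductases and degradation factors are transcribed. Proteins that do not fold are drawn back into the cytosol through a membrane complex, ubiquitinated and degraded. ATF6 and XBP1 are known to act at short promoter elements, among them the ER stress response element (ERSE), where the factor NF-Y binds the CCAAT part.

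The rule for choosing the 36 genes did not use the ERSE, but it is an element of the same response for which they were chosen. The share of members that hold it is therefore not independent of that choice, and the matches are shown as a description. The RefSeq promoter table (GRCm38.p6, the same build as mm10) held 30 of the 36 genes, and the 250 bases before each start were searched on both strands. The ERSE, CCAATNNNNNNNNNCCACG, was found in 10 of the 30 genes (33.3%), against 35 of all 27025 genes of the table (0.13%). The shorter ERSE-II, ATTGGNCCACG, was found in Herpud1 (3.33% of the 30), against 10 of all 27025 genes (0.037%). The unfolded protein response element TGACGTGG was in 0 of the 30 and in 163 of all genes (0.603%), which says only that these letters are not in those windows. The ERSE matches follow 5′ to 3′ on the strand that carries the motif, with the CCAAT and CCACG ends in capitals. Hsp90b1 held 2 of them.
Hspa5: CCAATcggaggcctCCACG
Hsp90b1 (distal): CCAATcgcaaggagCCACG
Hsp90b1 (proximal): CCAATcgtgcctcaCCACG
Calr: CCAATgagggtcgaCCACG
Canx: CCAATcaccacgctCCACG
Dnajc3: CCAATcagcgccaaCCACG
Pdia6: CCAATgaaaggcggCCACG
Ero1lb: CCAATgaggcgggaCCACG
Creld2: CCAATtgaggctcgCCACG
Syvn1: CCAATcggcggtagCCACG
Derl3: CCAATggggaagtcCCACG
The match began 65 bases before the start in Hspa5 (chr2:34772025-34772043, plus strand), 145 bases before it in Canx (chr11:50325800-50325818, minus strand), 105 bases before it in Dnajc3 (chr14:118937827-118937845, plus strand) and 201 bases before it in Ero1lb (chr13:12565682-12565700, minus strand). A match is a description of the letters and not a measured binding site.

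RNA of 5 of 10 ER chaperones and of both oxidases that drive disulfide bond formation was higher in Ad-Dyrk1b livers, the degradation factor Herpud1 was lower, and the stress sensors and the most abundant chaperones (Hspa5, Hsp90b1 and Calr) did not pass the test. A gene was called when edgeR's quasi-likelihood test gave an adjusted p under 0.05 over all 13201 genes. Of the 36 members, 8 rose (22.2%), against 7.36% of all tested genes, and Herpud1 fell (2.78% of members), against 4.81% of all tested genes. The 8 were the chaperones Hyou1, Dnajb9, Dnajc3, Sdf2l1 and Canx, the secreted protein Manf, and the oxidases Ero1l and Ero1lb. The shifts were small, with a median log2 fold change (Ad-Dyrk1b over Ad-EGFP) of 0.25 over the members and -0.005 over all tested genes, and 32 of 36 members had a value above 0 (88.9%), against 49.4% of all tested genes. The count rests on few libraries: it was 2 without Ad-EGFP replicate 1, 4 without Ad-Dyrk1b replicate 1 or replicate 2, 5 without Ad-EGFP replicate 2 or replicate 3, and 9 without Ad-Dyrk1b replicate 3. Herpud1 was no longer called without Ad-EGFP replicate 2 or replicate 3, and in a model on log2(FPKM + 1) the members called higher were 2, Hyou1 and Dnajb9. Over all genes the calls higher were 972 in the main fit and 612 to 800 without 1 library. They were 615 without Ad-EGFP replicate 1 and 556 on log2(FPKM + 1), and there the members' share lay near that of all genes.

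**Figure D1:**
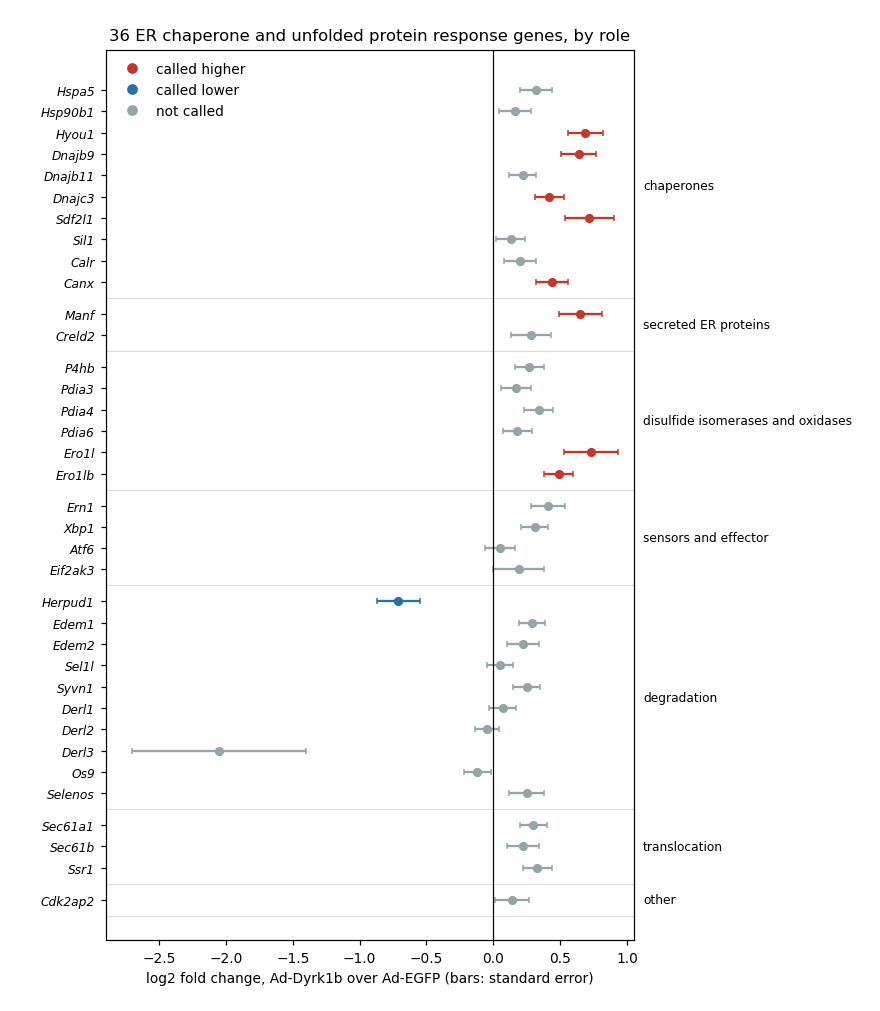
Log2 fold change (Ad-Dyrk1b over Ad-EGFP, x axis) with its standard error for each of the 36 members, grouped by role, with members called by edgeR marked by colour. The 8 members called higher lie between 0.42 and 0.73, and Herpud1 lies at -0.71.

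Beside these results stand the measures of the libraries themselves. Total counts ran from 17326516 to 20024888 per library. Dyrk1b was far above the control level in each treated library (62.2, 101 and 96.5 FPKM in Ad-Dyrk1b, against 3.81, 4.97 and 4.16 FPKM in Ad-EGFP), where FPKM is the deposited level, scaled to gene length and library size. Ad-Dyrk1b replicate 3 stood apart on the second principal component (14.3% of the variance), at -26.7. On that component Ad-EGFP replicate 3 was also below 0, at -12, and the other libraries lay from 4.13 to 17.2. The 7 hepatocyte markers summed to 33000, 35600 and 40500 FPKM in Ad-Dyrk1b, against 41700, 39600 and 40200 FPKM in Ad-EGFP, so the tissue label holds (1 called higher, Cyp2e1). Lists of other cells also differed between libraries: 7 T and NK cell markers summed to 21.8 to 32.0 FPKM in Ad-Dyrk1b against 12.9 to 18.9 FPKM in Ad-EGFP (1 called higher, Gzmb), 5 cholangiocyte markers to 219 to 300 FPKM against 138 to 172 FPKM (1 called higher, Spp1), and the 5 erythroid markers measured to 1390 to 5740 FPKM against 821 to 1370 FPKM (5740 FPKM in Ad-Dyrk1b replicate 3). Kupffer cell and macrophage markers overlapped, at 424 to 553 FPKM against 293 to 522 FPKM (1 of 7 called higher, Cd68), as did endothelial markers, at 56.6 to 83.3 FPKM against 41.3 to 62.0 FPKM (6 markers), and stellate cell markers, at 98.4 to 157 FPKM against 106 to 137 FPKM (6 markers). Plasma cells and pancreatic acinar cells are the secretory cells richest in these ER proteins, and their markers were low. The 10 B and plasma cell markers summed to 5.73 to 13.4 FPKM against 7.24 to 10.6 FPKM. The 11 acinar markers summed to 11.7 to 14.1 FPKM against 10.6 to 13.1 FPKM, with Cpa1, Cpb1, Pnlip and Cel at 0 in all 6 libraries. The part of other cells in the results was not tested, and in bulk liver fewer cells of a type and less RNA per cell cannot be told apart.

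The chaperones bind unfolded chains in the ER lumen. BiP (Hspa5) is the central one, Dnajb9, Dnajb11 and Dnajc3 are its J-domain partners, Hyou1 and Sil1 exchange its nucleotide, Sdf2l1 works with it and Dnajb11, and Canx and Calr are lectins that hold glycoproteins. Among these 10, 5 rose, the median log2 fold change was 0.37, and the values of all 10 were above 0.

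Hyou1 (ENSMUSG00000032115, chr9:44379490-44392369, plus strand) stood at 24.7, 23.1 and 18.3 FPKM in Ad-Dyrk1b, against 12.8, 14.0 and 16.7 FPKM in Ad-EGFP. All 3 Ad-Dyrk1b libraries lay above all 3 Ad-EGFP libraries, with replicate 3 of each group closest to the other. On the log2 scale the difference was 0.69 ± 0.13 (standard error, as after each ± on log2 values; edgeR adjusted p = 0.00449), a 1.61-fold higher level. Dnajb9, a co-chaperone that also binds IRE1, stood at 36.5, 37.0 and 27.4 FPKM in Ad-Dyrk1b, against 21.1, 25.3 and 22.4 FPKM in Ad-EGFP. Its groups did not overlap, and Ad-Dyrk1b replicates 1 and 2 were the highest. Its log2 fold change was 0.64 ± 0.13 (edgeR adjusted p = 0.0066). Hyou1 and Dnajb9 were the only members called higher under all 13 alternative settings, each left-out library included, with edgeR adjusted p values without 1 library of 0.00182 to 0.0213 for Hyou1 and of 0.00165 to 0.0334 for Dnajb9.

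Dnajc3, also known as p58IPK and an inhibitor of PERK, stood at 46.6, 44.5 and 40.2 FPKM in Ad-Dyrk1b, against 31.5, 37.0 and 35.5 FPKM in Ad-EGFP. The groups did not overlap, and the log2 fold change was 0.42 ± 0.11 (edgeR adjusted p = 0.0219, and 0.0211 to 0.0983 without 1 library). Dropping Ad-Dyrk1b library 1 or 2, or Ad-EGFP library 1 or 3, ended the call. Its promoter is shown as one of the called members with the smallest p whose window held at most 30 annotated exon bases (chr14:118937682-118937931, plus strand, GRCm38.p6, RefSeq), with the ERSE in capitals.
Dnajc3 promoter: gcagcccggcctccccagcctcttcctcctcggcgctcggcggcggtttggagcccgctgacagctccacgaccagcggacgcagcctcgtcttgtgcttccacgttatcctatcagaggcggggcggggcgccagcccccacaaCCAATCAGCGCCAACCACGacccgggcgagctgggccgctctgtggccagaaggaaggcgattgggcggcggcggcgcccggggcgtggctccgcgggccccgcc

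Sdf2l1 stood at 12.8, 10.8 and 11.4 FPKM in Ad-Dyrk1b, against 5.74, 7.43 and 9.43 FPKM in Ad-EGFP. Ad-EGFP replicate 3 was the closest to the treated libraries, and the groups did not overlap. Its log2 fold change was 0.72 ± 0.18 (edgeR adjusted p = 0.0224, and 0.0154 to 0.0741 without 1 library), and it was called in 2 of the 6 fits without 1 library, those lacking Ad-Dyrk1b library 3 or Ad-EGFP library 3. Canx, the membrane-bound lectin, stood at 123, 111 and 95.3 FPKM in Ad-Dyrk1b, against 78.5, 90.7 and 88.9 FPKM in Ad-EGFP. Here too the groups did not overlap, with Ad-Dyrk1b replicate 3 the lowest of its group. For Canx the log2 fold change was 0.44 ± 0.12 (edgeR adjusted p = 0.0284, and 0.0138 to 0.113 without 1 library), and of the 6 fits without 1 library the call was kept in that without Ad-Dyrk1b replicate 3.

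The other 5 chaperones did not pass the test. Hspa5 was among the most abundant members per length, at 327, 316 and 268 FPKM in Ad-Dyrk1b, against 228, 262 and 287 FPKM in Ad-EGFP. The groups overlapped, since Ad-Dyrk1b replicate 3 lay below Ad-EGFP replicate 3. Its log2 fold change was 0.32 ± 0.12 (edgeR adjusted p = 0.111). Hsp90b1, the ER member of the Hsp90 family, averaged 340 ± 45.8 FPKM in Ad-Dyrk1b, against 331 ± 26.2 FPKM in Ad-EGFP (SD, n = 3 each), with a log2 fold change of 0.16. For Calr the mean was 270 ± 13.6 FPKM in Ad-Dyrk1b, against 250 ± 22.3 FPKM in Ad-EGFP (log2 fold change 0.20), with reads of the pseudogene Calr-ps a possible share of its counts. Dnajb11 and Sil1 had log2 fold changes of 0.22 and 0.13, and their groups overlapped.

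Manf and Creld2 encode ER proteins that are also secreted. Manf stood at 127, 82.1 and 79.1 FPKM in Ad-Dyrk1b, against 59.6, 57.6 and 73.3 FPKM in Ad-EGFP. All treated libraries were above all controls, and Ad-Dyrk1b replicate 1 was well above the other two. Its log2 fold change was 0.65 ± 0.16 (edgeR adjusted p = 0.0223, and 0.0114 to 0.0791 without 1 library), and leaving out Ad-Dyrk1b library 1, or library 1 or 2 of Ad-EGFP, ended the call. The annotated Manf locus overlaps Dcaf1 on the opposite strand and Rbm15b on the same strand. Manf counts are therefore uncertain against Dcaf1 where the counting used no strand, and against Rbm15b in either case. Creld2 had 40.5, 28.2 and 27.8 FPKM in Ad-Dyrk1b, against 25.6, 25.3 and 33.2 FPKM in Ad-EGFP. Ad-Dyrk1b replicate 1 was again the highest library, the groups overlapped, and the log2 fold change of 0.28 ± 0.15 was not called (edgeR adjusted p = 0.233).

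Disulfide bonds are moved into client proteins by the isomerases P4hb, Pdia3, Pdia4 and Pdia6, and the oxidases Ero1l and Ero1lb re-oxidise the isomerases. Both oxidases rose, and the 4 isomerases did not pass edgeR's test. Of these 4 isomerases, 2 were higher at an unadjusted p under 0.05 by edgeR, DESeq2 called 2 and limma called 0. Of all 13201 tested genes, 1970 were higher and 1787 lower at an unadjusted p under 0.05 by edgeR. Ero1lb stood at 11.3, 12.4 and 10.8 FPKM in Ad-Dyrk1b, against 7.68, 9.07 and 8.80 FPKM in Ad-EGFP. The treated libraries lay close together and above all controls. Its log2 fold change was 0.49 ± 0.11 (edgeR adjusted p = 0.0146, and 0.0177 to 0.0668 without 1 library), and the call depended on Ad-Dyrk1b library 2 and on Ad-EGFP library 1. Its promoter carries the ERSE on the other strand. Only 241 of the 250 bases searched are given, ending before the GENCODE start of the gene. The position of 201 bases given earlier counts from the RefSeq start, which lies further on. The ERSE is in capitals, as read on the gene's strand (chr13:12565633-12565873, plus strand, GRCm38.p6, RefSeq).
Ero1lb promoter: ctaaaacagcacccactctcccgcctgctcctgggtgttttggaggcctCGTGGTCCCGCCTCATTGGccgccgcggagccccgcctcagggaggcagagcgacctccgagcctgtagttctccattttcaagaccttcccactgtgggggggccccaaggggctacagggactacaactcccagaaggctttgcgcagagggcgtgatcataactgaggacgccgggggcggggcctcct

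Ero1l, which is also known as a hypoxia-responsive gene, stood at 11.2, 10.3 and 17.6 FPKM in Ad-Dyrk1b, against 7.17, 9.07 and 8.78 FPKM in Ad-EGFP. The groups did not overlap, but Ad-Dyrk1b replicate 3 was far above the other 5 libraries, and this is the library with the highest erythroid sum. A link between these values was not tested. For Ero1l the log2 fold change was 0.73 ± 0.20 (edgeR adjusted p = 0.0444, and 0.0326 to 0.145 without 1 library), and it was 0.45 without Ad-Dyrk1b replicate 3. No call was made when any 1 of the 3 Ad-EGFP libraries was left out or when the low-count filter was dropped (edgeR adjusted p = 0.0617).

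P4hb had the highest level per length of all members, at 540, 529 and 512 FPKM in Ad-Dyrk1b, against 440, 469 and 486 FPKM in Ad-EGFP. Its groups did not overlap, and the log2 fold change of 0.27 ± 0.11 was not called (edgeR adjusted p = 0.136). For Pdia4 the values were 111, 102 and 84.3 FPKM in Ad-Dyrk1b, against 80.3, 86.9 and 83.0 FPKM in Ad-EGFP. Ad-Dyrk1b replicate 3 fell among the controls, and the log2 fold change of 0.34 ± 0.11 was not called by edgeR (adjusted p = 0.0747). Pdia3 and Pdia6 had log2 fold changes of 0.17 and 0.18 with overlapping groups.

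**Figure D2:**
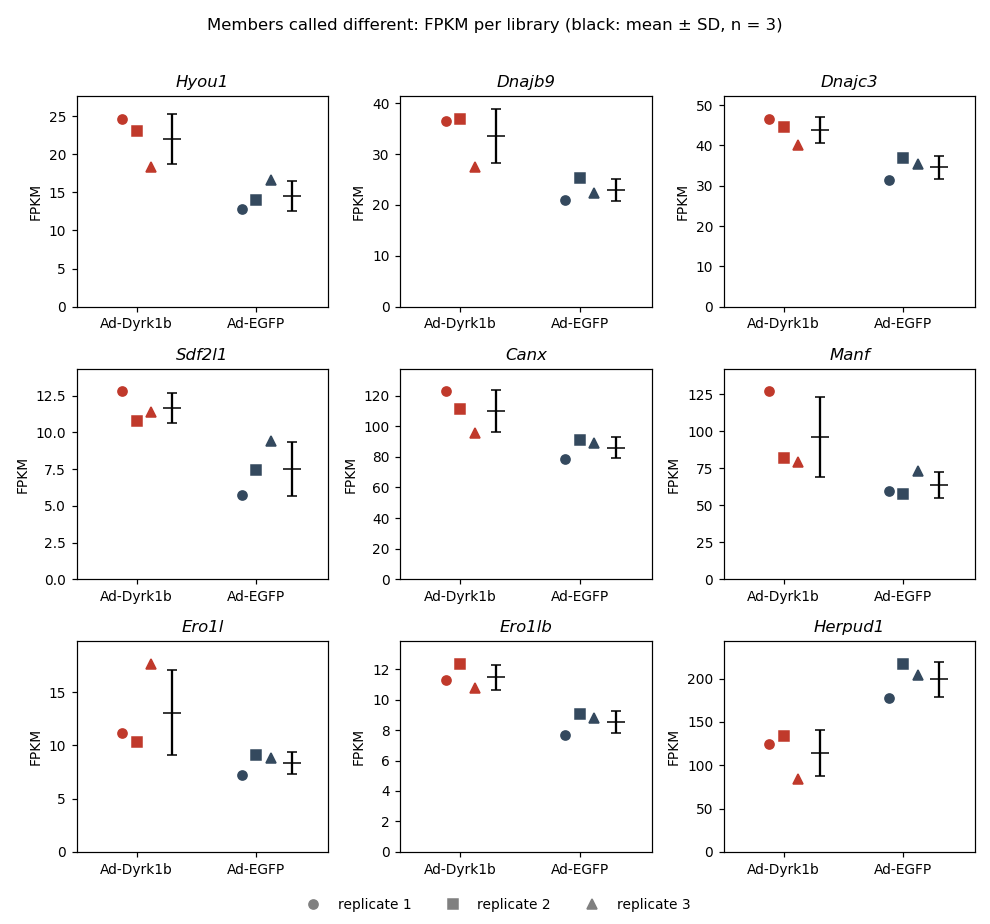
FPKM of the 9 called members in each library (y axis from 0), with Ad-Dyrk1b libraries left of Ad-EGFP libraries, symbols for replicate numbers, and black bars for the mean ± SD (n = 3). In all 9 panels the groups are separate, Ad-Dyrk1b replicate 3 is the treated library nearest to the controls for Hyou1, Dnajb9, Dnajc3, Canx, Manf and Ero1lb, and the order of groups turns round for Herpud1.

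The sensors and their effector were measured only as total RNA per gene, so neither Xbp1 splicing nor ATF6 cleavage nor kinase activity was read here. No sensor passed edgeR's test: 0 of 4 genes were called, DESeq2 called Xbp1, and limma called 0. By edgeR 2 of 4 were higher at an unadjusted p under 0.05, against 1970 of all 13201 tested genes. Xbp1 stood at 106, 97.6 and 87.0 FPKM in Ad-Dyrk1b, against 84.1, 81.9 and 82.9 FPKM in Ad-EGFP. The groups did not overlap, the controls lay close together and the treated libraries did not. The log2 fold change was 0.31 ± 0.10 (edgeR adjusted p = 0.0675, and 0.0519 to 0.173 without 1 library). Ern1 was low in level, at 4.8, 5.32 and 5.01 FPKM in Ad-Dyrk1b, against 3.68, 4.96 and 3.46 FPKM in Ad-EGFP. Ad-EGFP replicate 2 fell among the treated libraries. The log2 fold change was 0.41 ± 0.13 (edgeR adjusted p = 0.0634), and without Ad-EGFP replicate 2 it was 0.55 and called (edgeR adjusted p = 0.0202). Eif2ak3 and Atf6 had log2 fold changes of 0.19 ± 0.19 and 0.05 ± 0.11, with groups that overlapped. The direction for Atf6 turned to -0.03 on the FPKM scale and to -0.01 at the lowest without 1 library.

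The degradation genes lay on both sides of 0: their median log2 fold change was 0.06, with 6 of 10 above 0 and 4 below. That share above 0 (60.0%) was near the 49.4% of all tested genes. The complex that takes misfolded proteins out of the ER is built on the ubiquitin ligase Syvn1 (HRD1) and its partner Sel1l, with Herpud1 as an adaptor, Derl1, Derl2 and Derl3 in the membrane, Os9 as a glycan reader, Selenos as a link to the cytosolic extraction machinery, and Edem1 and Edem2 as factors of mannose trimming.

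Herpud1 (ENSMUSG00000031770, chr8:94386438-94395377, plus strand) stood at 125, 134 and 83.7 FPKM in Ad-Dyrk1b, against 177, 217 and 204 FPKM in Ad-EGFP. All 3 treated libraries lay below all 3 controls, and Ad-Dyrk1b replicate 3 was the lowest. The log2 fold change was -0.71 ± 0.16, or 0.611 of the control level (edgeR adjusted p = 0.0177, and 0.00733 to 0.0606 without 1 library). An annotated antisense gene, Gm15890, overlaps 535 bases of the locus, and without a stated strand its reads cannot be told apart. By the same rule the promoter of Herpud1 is shown, which held the only ERSE-II among the 30 members searched, in capitals (chr8:94386179-94386428, plus strand, GRCm38.p6, RefSeq).
Herpud1 promoter: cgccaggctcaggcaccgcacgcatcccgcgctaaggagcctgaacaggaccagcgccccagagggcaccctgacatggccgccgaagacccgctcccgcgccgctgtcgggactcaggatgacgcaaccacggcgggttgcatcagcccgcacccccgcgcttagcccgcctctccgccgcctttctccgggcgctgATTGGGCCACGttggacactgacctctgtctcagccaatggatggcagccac

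Derl3 was the rarest member, at 0, 0.26 and 0.42 FPKM in Ad-Dyrk1b, against 0.89, 1.34 and 0.83 FPKM in Ad-EGFP. These levels rest on 0, 7 and 10 counts in Ad-Dyrk1b and 21, 31 and 19 counts in Ad-EGFP. The groups did not overlap, and the fitted log2 fold change of -2.05 ± 0.65 was not called by edgeR (adjusted p = 0.061), while DESeq2 called it (adjusted p = 0.0379). Os9 stood at 55.2, 52.8 and 48.5 FPKM in Ad-Dyrk1b, against 59.9, 59.9 and 60.3 FPKM in Ad-EGFP. Every treated library was below the controls in FPKM, but the log2 fold change fitted on counts was -0.12 ± 0.10 (edgeR adjusted p = 0.444). Edem1 was at 27.4, 25.5 and 22.5 FPKM in Ad-Dyrk1b, against 21.7, 22.4 and 21.5 FPKM in Ad-EGFP. Its groups were narrowly separate, and its log2 fold change of 0.29 ± 0.10 was not called (edgeR adjusted p = 0.0883). Syvn1, Selenos and Edem2 had log2 fold changes of 0.25, 0.25 and 0.22, and Sel1l, Derl1 and Derl2 had values of 0.05, 0.07 and -0.05. On the FPKM scale the values of Sel1l and Derl1 turned to -0.03 and -0.02.

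The 3 translocation genes encode parts of the channel and of its companion complex, through which chains enter the ER. Sec61a1, the channel subunit, stood at 63.4, 62.6 and 59.1 FPKM in Ad-Dyrk1b, against 50.9, 51.0 and 57.6 FPKM in Ad-EGFP. Its groups did not overlap, and its log2 fold change was 0.30 ± 0.10 (edgeR adjusted p = 0.0762). Ssr1, of the translocon-associated complex, differed by 0.33 ± 0.11 on that scale (edgeR adjusted p = 0.0673), and the small channel subunit Sec61b had 0.22 ± 0.12, both with overlapping groups. By edgeR 0 of the 3 were called, DESeq2 called 2 (Sec61a1 and Ssr1) and limma called 0. At an unadjusted p under 0.05 edgeR had 2 of the 3 higher, against 1970 of all 13201 tested genes. Cdk2ap2 averaged 39.3 ± 5.84 FPKM in Ad-Dyrk1b, against 37.3 ± 4.66 FPKM in Ad-EGFP (SD, n = 3 each), with a log2 fold change of 0.14.

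Across members the groups did not overlap in FPKM, with Ad-Dyrk1b higher, in 12 of 36 genes (33.3%), against 10.9% of all tested genes. They were separate with Ad-Dyrk1b lower in 3 of 36 genes (Herpud1, Derl3 and Os9), against 21.9% of all tested genes. All tested genes leaned lower in FPKM, with a median log2 fold change of -0.064 on log2(FPKM + 1), against -0.005 on counts. The rise of the members was uneven between libraries. Of the 36 members, 27, 29 and 21 were above all Ad-EGFP libraries in CPM (counts scaled to library size with TMM factors) in Ad-Dyrk1b replicates 1, 2 and 3. Over all tested genes the shares were 32.5%, 30.8% and 33.5%. The highest library of a member was Ad-Dyrk1b replicate 2 in 18 genes, Ad-Dyrk1b replicate 1 in 12 and Ad-Dyrk1b replicate 3 in 2. Over all tested genes these libraries were the highest in 14.6%, 16.2% and 18.7%. The lowest library of a member was Ad-EGFP replicate 1 in 17 and Ad-EGFP replicate 2 in 13, against 19.9% and 16.4% of all tested genes. Members took 0.869%, 0.823% and 0.741% of all counts in Ad-Dyrk1b, against 0.692%, 0.747% and 0.777% in Ad-EGFP, so Ad-Dyrk1b replicate 3 was below Ad-EGFP replicates 2 and 3 by this measure.

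For the 10 chaperones, the mean log2(CPM + 0.5), after each gene was centred on its own mean, stood at 0.23, 0.28 and 0.08 in Ad-Dyrk1b, against -0.30, -0.20 and -0.08 in Ad-EGFP. The 6 isomerases and oxidases showed 0.14, 0.23 and 0.15 in Ad-Dyrk1b, against -0.24, -0.14 and -0.15 in Ad-EGFP. In both roles the groups were separate. Degradation genes gave -0.06, 0.03 and -0.13 in Ad-Dyrk1b, against 0.01, 0.08 and 0.07 in Ad-EGFP, and there the groups overlapped. Those means include Derl3 (log2 fold change -2.05, on few counts) and Herpud1 (-0.71). The medians of the degradation genes were 0.05, 0.03 and -0.06 in Ad-Dyrk1b, against -0.09, 0.0 and 0.03 in Ad-EGFP, and overlapped too. Sensors overlapped as well, because Ad-EGFP replicate 2 (0.07) lay above Ad-Dyrk1b replicate 3 (0.02).

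**Figure D3:**
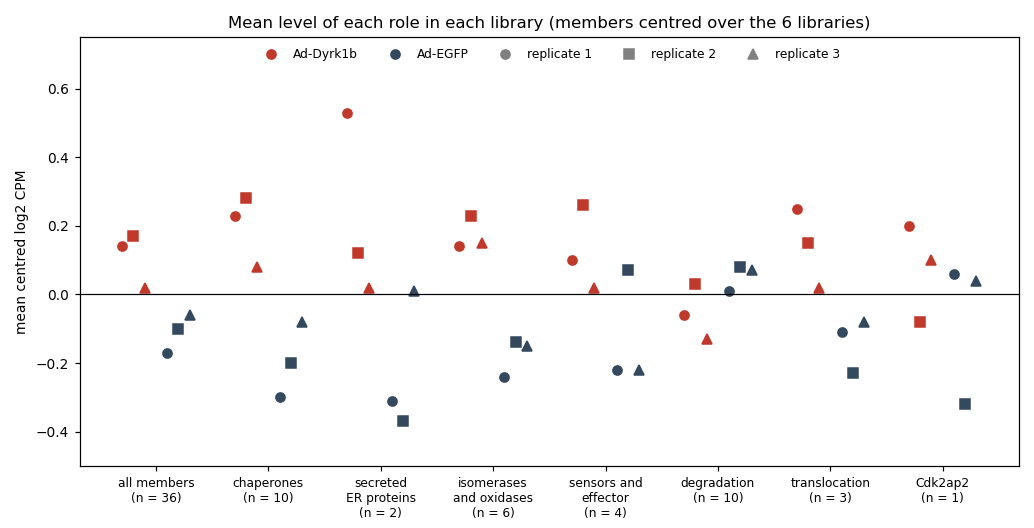
Mean centred log2 CPM of each role (y axis) in each library, with Ad-Dyrk1b libraries left of Ad-EGFP libraries in each role and symbols for replicate numbers. Chaperones run from 0.08 to 0.28 in Ad-Dyrk1b and from -0.30 to -0.08 in Ad-EGFP, and the degradation genes of both groups lie close to 0.

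Members with and without an ERSE had similar medians. Over all tested genes 7.36% were called higher. Of the 10 members with an ERSE, 3 were called higher (Canx, Dnajc3 and Ero1lb), and the median log2 fold change was 0.26. Of the 20 members in the promoter table without one in the window, 3 were called higher and Herpud1 lower, and the median was 0.24. The Herpud1 window ends in the letters of an ERSE short of its last base, and the bases beyond were not searched. The side of the split on which Herpud1 falls is therefore set by the window's edge. No test was made of this split.

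Other genes of the same route were read from lists of the pathway in the same fit. Across 6 lists 113 genes were tested, of which 16 rose (14.2%), against 7.36% of all tested genes, and 0 were called lower by edgeR. At an unadjusted p under 0.05 edgeR had 31 of the 113 higher and 3 lower, against 1970 and 1787 of all 13201 tested genes. On log2(FPKM + 1) limma called 3 of the 113 higher and 1 lower, and DESeq2 called 17 higher and 1 lower. Other disulfide and folding enzymes had 5 of 21 called higher (1 on log2(FPKM + 1)) and a median log2 fold change of 0.26. Among these Pdia5, a further protein disulfide isomerase, stood at 34.1, 32.7 and 36.8 FPKM in Ad-Dyrk1b, against 18.6, 17.4 and 18.3 FPKM in Ad-EGFP. The groups were far apart, and the log2 fold change of 1.01 ± 0.10 was above that of all 36 members (edgeR adjusted p = 6.99e-05, and at most 0.000851 without 1 library). The sulfhydryl oxidase Qsox1 (0.59), the prolyl isomerase Fkbp14 (0.64) and the Hsp70-like protein Hspa13 (0.47) also rose on the log2 scale.

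N-glycosylation and glycan trimming had 5 of 18 genes called higher (27.8%, against 7.36% of all tested genes; 0 on log2(FPKM + 1)) and a median log2 fold change of 0.17. Magt1 (0.54), Ostc (0.47) and Stt3b (0.35) belong to the oligosaccharyltransferase, and Mogs (0.48) is the glucosidase that makes the first cut in the glycan. Other translocation and signal peptidase genes had 3 of 21 called higher, at a median of 0.09, namely the translocating-chain protein Tram1 (0.48), the signal recognition particle receptor subunit Srprb (0.55) and the signal peptidase subunit Spcs3 (0.43). From other degradation genes 1 of 19 rose, Selenok (0.62 ± 0.10, edgeR adjusted p = 0.00245), a selenoprotein of the ER membrane that is called in every fit without 1 library. Transport from ER to Golgi had 1 of 21 called higher, the cargo receptor Surf4 (0.36). Magt1 and Tram1 were likewise called in all 6 fits without 1 library. Library 1 of Ad-EGFP was needed for Qsox1 and Mogs, library 1 of Ad-Dyrk1b for Fkbp14 and Ostc, and libraries 1 and 2 of Ad-Dyrk1b for Srprb. Hspa13 and Spcs3 were called in 2 of the 6 fits (those without Ad-Dyrk1b library 3 or Ad-EGFP library 2), and Stt3b and Surf4 in 1 (that without Ad-Dyrk1b library 3). The remaining calls counted above, Rpn1 of the glycosylation list and Txndc11 of the disulfide list (0.35 each), were made in 0 of the 6 fits.

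The arm of the response that runs through PERK and ATF4 curbs general translation and induces genes of amino acid supply and cell death. Of 13 other regulators 1 rose (7.69%, close to the 7.36% of all tested genes, and 0 on log2(FPKM + 1)). It was Trib3, a pseudokinase induced by ATF4, at 7.34, 9.0 and 5.33 FPKM in Ad-Dyrk1b, against 3.66, 4.63 and 5.21 FPKM in Ad-EGFP. Ad-Dyrk1b replicate 3 was barely above Ad-EGFP replicate 3, the log2 fold change was 0.77 ± 0.21 (edgeR adjusted p = 0.0299), and the call held in 2 of the 6 fits without 1 library, those lacking replicate 3 of either group. Atf4 itself had a log2 fold change of 0.11 ± 0.12, and Ddit3 (CHOP) one of 0.41 ± 0.17 (edgeR adjusted p = 0.129). The cytosolic and mitochondrial heat shock genes, chaperones outside the ER, had a median of 0.01, and 0 of 15 were called by edgeR, with 0 at an unadjusted p under 0.05 and 0 called by DESeq2 or limma.

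**Figure D4:**
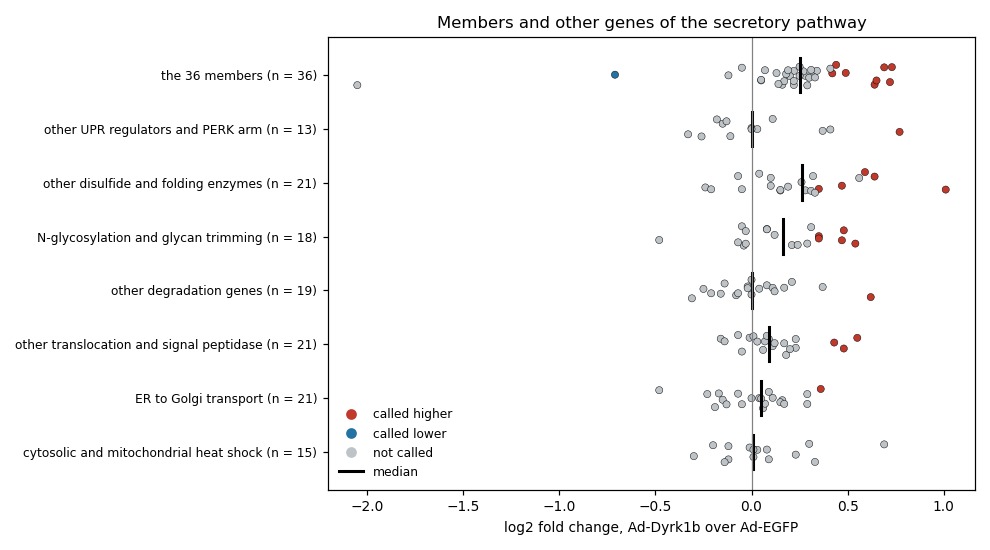
Log2 fold change (Ad-Dyrk1b over Ad-EGFP, x axis) of each tested gene, with the 36 members and 7 other lists in rows, black bars for medians and colours for edgeR's calls. The median lies at 0.25 for the members, 0.26 for other disulfide and folding enzymes and 0.01 for cytosolic and mitochondrial heat shock genes.

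The authors' deposited table gave 10 members an adjusted p under 0.05 and a higher level in Ad-Dyrk1b, and 2 a lower one, among 1035 higher and 614 lower genes in all. All 9 members called by edgeR were among them. In the same authors' deposited table Xbp1 (adjusted p = 0.0457), Ssr1 (adjusted p = 0.0395) and Derl3 (adjusted p = 0.0468) also passed, as 3 members that edgeR did not call.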

How the data were processed

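Mouse liver RNA was sequenced as 6 mRNA libraries (NEBNext Ultra, NovaSeq), per the labels' protocols. The build was mm10 and DESeq2 was used, per the submitters' processing notes. The sources used here give no aligner, counter, strand setting or annotation release. Per the file headers, the deposited table holds raw counts and the authors' FPKM per library, the log2 ratio of group means, and p-values with their adjusted values. Whether libraries of a group are separate mice is not stated. The p-values then cover only the spread between these libraries, which may be technical.

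Counts were tested with edgeR 4.0.16 (R 4.3.3; TMM, filterByExpr with minimum count 10 and total 15, robust quasi-likelihood F-test, two-sided) on all genes, with Benjamini-Hochberg adjustment over 13201 genes and a call under 0.05. Of 22274 genes, 5089 had no count. In 17326516 to 20024888 counts per library, 3 counts equal 0.150 to 0.173 CPM, which covers counting error only. On counts simulated for this comparison (13201 genes, 200 changed), 74.7% of 2-fold and 96.5% of 4-fold changes were called. Alternatives were RLE factors, no filter, DESeq2 1.42.0, limma 3.58.1 (voom, and trend on log2(FPKM + 1) or log2(FPKM + 0.1)), the replicate number as a block, and leaving out each library. Whether replicate numbers pair the libraries is not settled here, and the main fit did not use them.

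Members, lists, markers and tests were chosen with earlier results of these data known. The text names all 36 members, up to 4 called genes with the smallest p per pathway list, and Dyrk1b. Atf4, Ddit3, Rpn1, Txndc11 and the 4 called markers were named after their values were seen. Gene coordinates are from GENCODE M21. Promoters are of called members, smallest p first, leaving out windows with over 30 annotated exon bases. Besides Manf, the loci of Pdia3, Pdia6, Syvn1 and Derl2 overlap a protein-coding gene and those of Dnajb11, Sil1 and Sec61a1 an antisense gene, so their counts are uncertain without strand.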

Additional observations from a re-analysis of the deposited data

How the results depend on the processing

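With RLE factors 8 members were called higher and 1 lower, as with TMM. DESeq2 called 13 higher and 2 lower, with 1137 and 689 of all genes, against 972 and 635 by edgeR. The FPKM scale called 2 higher and 2 lower with either pseudocount, and the members' median log2 fold change was 0.16 there. That scale called 556 genes higher in all with a pseudocount of 1 and 553 with 0.1 (44.2% of all calls, against 60.5% with counts). Its median over all genes was -0.064 or -0.083. Leaving out 1 library gave 2 to 9 members higher and 0 to 2 lower, and 612 to 800 genes higher and 294 to 461 lower. Of 468 single-member values, 412 kept direction and call, 36 lost a call, 12 gained one and 8 turned direction. The 8 were Atf6 (-0.03 with either FPKM pseudocount, and -0.01 to 0.12 without 1 library), Sel1l (-0.03) and Derl1 (-0.02). The cause was not tested.

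With the replicate block 9 members were called higher and 1 lower (Ern1 was added), and 1109 and 774 of all genes. Deviations of same-numbered libraries correlated at 0.0245, 0.172 and 0.108. Ad-Dyrk1b replicate 1 correlated better with Ad-EGFP replicate 3 (0.0845), and every other library correlated best with its own number. These values do not settle whether the numbers pair the libraries. All 8 members called higher differed by less than 2-fold, a size the simulated counts did not cover, so a member that was not called may still differ.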
